A study of Mus musculus with 6 samples.

Results

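The replication-dependent histone genes were described in pancreatic islets of diabetic db/db mice and their db/m controls. Members were the rows of the count table that were marked protein-coding and whose symbol began with Hist1h, Hist2h, Hist3h or Hist4h. The rule gave 67 genes among the 44713 rows of the table. They comprised 6 linker histone H1 genes, 18 H2A genes, 18 H2B genes, 12 H3 genes and 13 H4 genes. By their position, 54 lay in the Hist1 cluster on chromosome 13, 10 in the Hist2 cluster on chromosome 3, 2 in the Hist3 cluster on chromosome 11 and 1, Hist4h4, on chromosome 6.

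RNA-seq counts were available for islets of 3 db/db mice, whose leptin receptor does not work and which grow obese and diabetic, and of 3 lean db/m mice. The labels give the genotypes as Lepr-/- and wild type on C57BL/6, whereas the paper describes male mice on the BKS background. It names the controls as db/m littermates, not as wild type. All mice were 10 weeks old and untreated as far as the labels say. The libraries were made from total RNA from which ribosomal RNA had been depleted, so that RNAs without a poly(A) tail could also be sequenced.

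Core histones H2A, H2B, H3 and H4 form the protein spool around which DNA is wound, and H1 binds the DNA between spools. Cells make most of their histones in S phase, when new DNA has to be packaged, from intronless genes that stand in clusters of near-identical copies. Their mRNAs end in a short stem-loop in place of a poly(A) tail. The stem-loop is bound by the protein SLBP, and the mRNA is destroyed when DNA synthesis stops. Some of these genes can also give polyadenylated mRNAs in cells that no longer divide.

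The stem-loop is shown first because it is the feature that sets these mRNAs apart, and none of it was used in choosing the genes. In the GRCm38 genome, the stem-loop consensus was matched within 150 bases after a stop codon in 65 of the 67 genes, between 21 and 58 bases after it (median 30). It was not matched in Hist1h2an and Hist2h2be. There were 8 different stem-loops, and the most frequent one was present in 41 genes. The stem-loops of the following genes are printed 5′ to 3′ with the 2 arms and the loop in capitals.
Hist1h1c: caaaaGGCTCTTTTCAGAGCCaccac
Hist1h2bc: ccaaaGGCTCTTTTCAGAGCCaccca
Hist2h2ac: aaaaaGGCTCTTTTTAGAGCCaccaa
Hist1h3e: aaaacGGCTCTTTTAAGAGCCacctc
Hist2h4: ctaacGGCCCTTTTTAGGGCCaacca
Hist1h4h: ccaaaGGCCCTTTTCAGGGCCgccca
Hist1h4j: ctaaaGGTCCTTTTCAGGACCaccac
Hist1h4k: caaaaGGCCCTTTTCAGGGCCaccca
These stem-loops lie in the mRNA's 3′ untranslated region, at chr13:23739512-23739527 (plus strand) for Hist1h1c, chr13:23684647-23684662 (plus) for Hist1h2bc, chr3:96220418-96220433 (minus) for Hist2h2ac and chr13:23561903-23561918 (minus) for Hist1h3e. Those of the H4 genes lie at chr3:96262939-96262954 (minus) for Hist2h4, chr13:23531458-23531473 (plus) for Hist1h4h, chr13:21735437-21735452 (plus) for Hist1h4j and chr13:21750150-21750165 (minus) for Hist1h4k. The arms differed by family. All 13 H4 genes had arms that begin with GGCCC or GGTCC, and every matched gene of the other families had arms that begin with GGCTC.

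The genes are also near copies of each other in their coding sequence. The 13 H4 genes encode 1 protein of 103 residues from 12 different coding sequences, with an identity between 85.4% and 100% of bases. A set of 9 H2A genes encode a shared protein of 130 residues, and 7 of the H3 genes encode a shared protein of 136 residues. For 13 genes, every stretch of 50 bases of the coding sequence also occurred in another gene, and in 20 genes this held for over 90% of the stretches. Only 5 genes had no such shared stretch, namely Hist1h1a, Hist1h1b, Hist1h1t, Hist2h2be and Hist4h4. The program that counted the reads is not given in the sources used here, so that the split of reads between copies is uncertain, and family sums are given beside single genes.

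Library totals lay between 15641797 and 20614531 counts, and 3 counts, taken as the floor of detection, corresponded to 0.11 to 0.24 CPM. CPM denotes library-scaled counts after TMM scaling, a method that sets the libraries to a common level for most genes. The islets labelled as such held much RNA of exocrine cells. Acinar marker genes took 71.1% to 77.5% of counts in db/db islets against 53.8% to 69.3% in db/m islets. β-cell markers, among them the insulin genes, took 0.152% to 0.648% and 0.782% to 4.43%. The db/m mouse with replicate number 1 stood apart, with the highest β-cell share, the lowest acinar share, a TMM factor of 1.75 and the most genes above 3 counts (17331, against 13498 to 15146 in the others). In such bulk samples fewer cells of a type and less RNA per cell cannot be told apart.

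Most of the genes were detected, but few were detected well. At least 1 count was present for 46, 53 and 58 of the 67 genes in db/db mice and for 61, 58 and 59 in db/m islets. More than 10 counts were present for 27, 27 and 30 genes in db/db mice and for 49, 32 and 30 in db/m islets. The db/m mouse with number 1 thus had more well-detected histone genes than the other 5 mice, which lay close together. These are raw counts, and the bar was lower in that mouse. There 3 counts stood for 0.11 CPM, against 0.16 to 0.24 CPM in the others. It also had the most genes above 3 counts in the whole table, as given above. All 6 mice had at least 1 count for 40 genes, more than 3 counts for 30 genes and more than 10 counts for 24 genes. No read was counted in any mouse for Hist1h2aa and Hist1h2ba, the testis H2A and H2B genes, nor for Hist1h2ap and Hist1h2bp. A count of 0 here sets only the floor given above as the upper limit of counted reads, not of the mRNA. Of the coding stretches of 50 bases, 100% of Hist1h2ap and 71.0% of Hist1h2bp occur in another gene. For Hist1h2ba and Hist1h2aa these were 37.7% and 2.37%. How reads of such copies were counted is not known. The filter on low counts (filterByExpr of edgeR) left 30 of the 67 genes for testing, comprising 3 H1, 5 H2A, 6 H2B, 5 H3 and 11 H4 genes. Genes that passed the filter only through one group had to differ, so the tested genes are not described as all members.

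**Figure D1:**
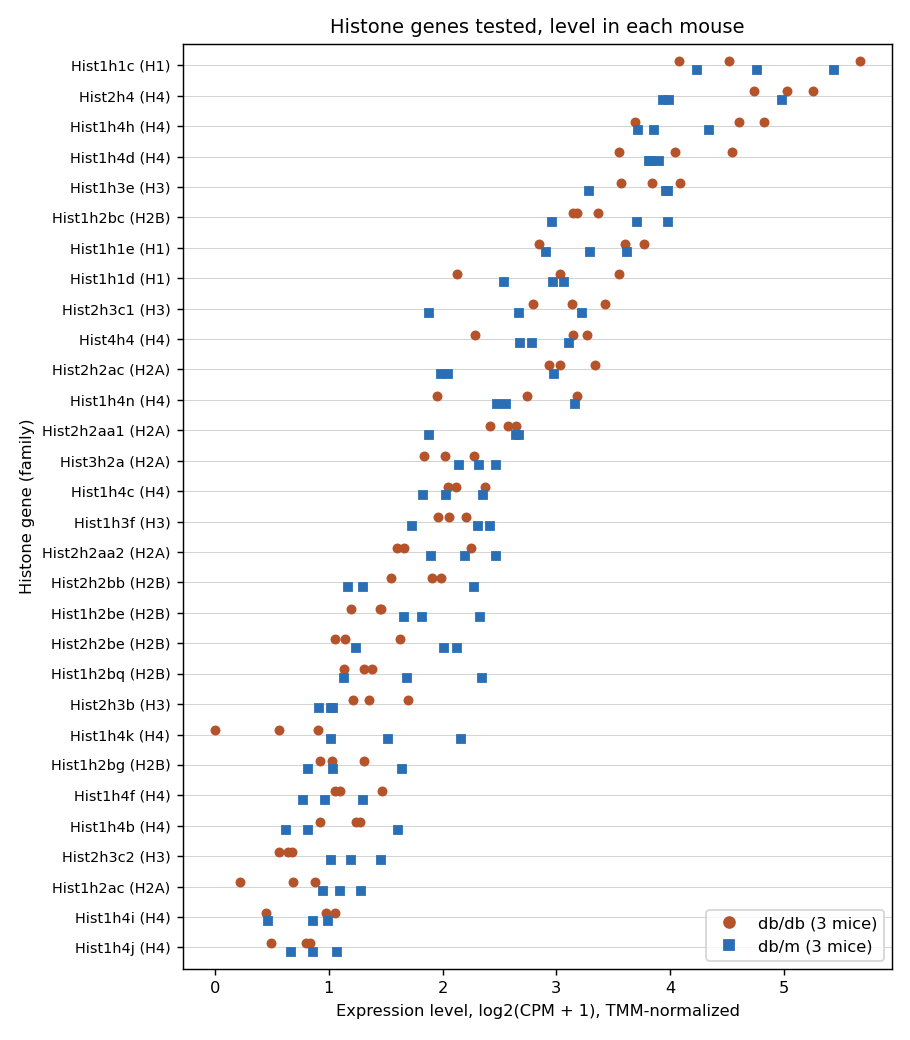
Level of the 30 tested histone genes in each mouse, as log2(CPM + 1) on the horizontal axis, with circles for the 3 db/db mice and squares for the 3 db/m mice. Genes are ordered by their mean over the 6 mice, from Hist1h1c at the top to Hist1h4j at the bottom, and the groups overlap in 25 of the 30 rows.

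The histone reads came from few genes. Hist1h1c, which encodes the linker histone H1.2, took 15.6% of all histone counts. Together with Hist2h4, Hist1h4h, Hist1h4d and Hist1h3e it took 50.3%, and the 20 highest genes took 88.4%. Levels of different genes were compared as CPM per kb of RefSeq exon sequence, averaged over the 6 mice. On this scale Hist2h4 was highest at 67.1, followed by Hist1h4h at 41.3, Hist1h1c at 40.1 and Hist1h4d at 36.9. The next genes were Hist4h4 at 14.9, Hist1h3e at 14.4, Hist1h4n at 13.99 and Hist2h2ac at 12.8. On RefSeq lengths the 4 leading genes thus stood apart from the rest, and Hist1h4h, Hist1h1c and Hist1h4d did not differ beyond the spread between mice. The annotation used for counting is not given in the sources used here, and the longer GENCODE models change the order, with 38.2 for Hist1h4h, 18.6 for Hist1h1c, 15.8 for Hist2h4, 15.6 for Hist1h3e, 13.2 for Hist1h4n and 13.0 for Hist1h4d. On those lengths the gap after the leading 4 genes is not present.

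Shared sequence and level were set side by side. Of the 13 genes with all coding stretches shared, 7 had a mean under 1 CPM, and of the 15 genes with at most 50% shared, 7 had a mean under 1 CPM. The Spearman correlation between the shared percentage and CPM per kb of coding sequence was -0.15 across the 67 genes, which are not independent of each other. Single pairs of copies were nevertheless counted very unequally. The H4 genes Hist1h4n and Hist1h4m have the same coding sequence, and Hist1h4n had 48 to 137 counts per mouse whereas Hist1h4m had 0 to 5. The same was seen for the H2B pair Hist1h2bq, with 20 to 111 counts, and Hist1h2br, with 0 or 1. Which copy such reads came from cannot be told apart from these counts.

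**Figure D2:**
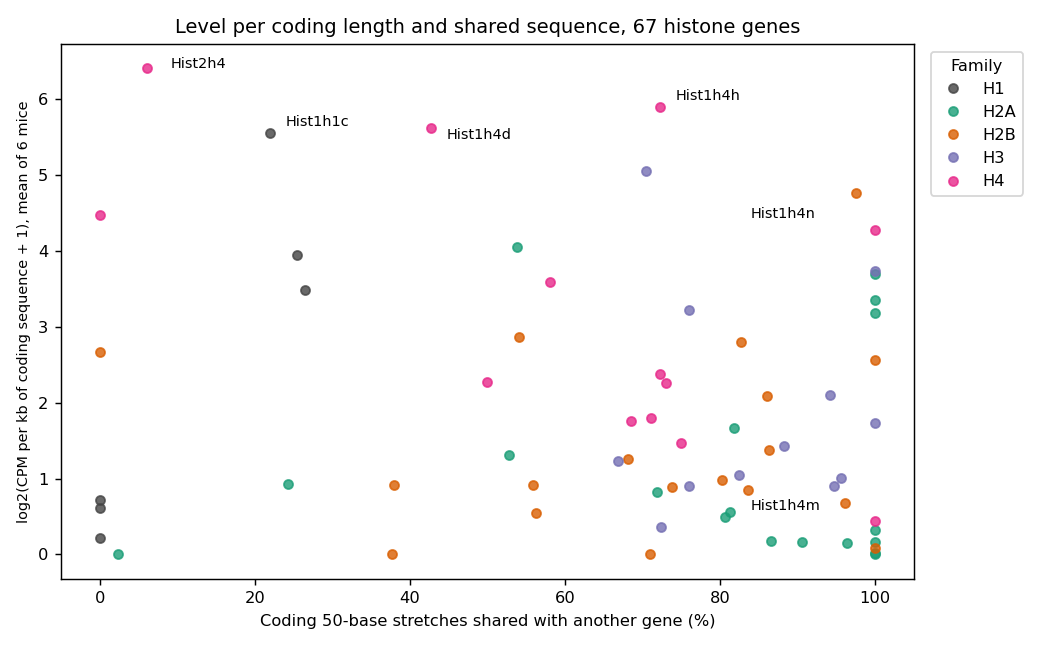
Mean level per coding length, as log2(CPM per kb of coding sequence + 1), of the 67 histone genes against the percentage of their coding stretches of 50 bases that occur in another gene, coloured by family. Genes at 100% shared run from 0 to the level of Hist1h4n, and Hist2h4, with 6.15% shared, is the highest gene.

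The first comparison asked whether histone mRNAs as a whole differed with the db/db genotype. The summed level of the 67 genes was 194, 199 and 221 CPM in db/db islets against 211, 203 and 156 CPM in db/m islets. The groups overlapped, with means of 204.6 ± 14.3 and 190.1 ± 30.0 CPM (SD, n = 3 each). The difference of the mean log2 sums was 0.12. It depended on the scaling, because it was -0.45 with library size alone, a scaling that moved the median of all tested genes to -0.59. As raw shares of the library, histone genes took 117, 197 and 203 CPM without TMM scaling in db/db islets against 368, 216 and 151 in db/m islets.

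The families did not all lie on the same side. H1 genes summed to 25.4, 74.1 and 41.4 CPM in db/db islets against 63.2, 40.3 and 32.2 in db/m islets, and varied most between mice. H2A genes summed to 20.6, 17.9 and 23.7 CPM and to 16.7, 23.3 and 18.1 CPM, respectively. Both families overlapped between the groups. H2B genes summed to 19.7, 16.7 and 19.9 CPM in db/db islets and to 31.5, 24.4 and 25.1 CPM in db/m islets, so that each db/db mouse lay below each db/m mouse. The H2B means were 18.8 ± 1.76 and 27.0 ± 3.89 CPM (SD, n = 3 each), a difference of -0.52 on the log2 scale. H3 genes summed to 29.9, 27.4 and 28.7 CPM and to 31.8, 29.0 and 23.0 CPM. H4 genes summed to 98.6, 62.5 and 107 CPM in db/db islets and to 67.9, 86.4 and 57.3 CPM in db/m islets, a difference of 0.33 with overlapping groups. No test was made of these sums. The acinar and β-cell shares given above also did not overlap between the groups, and their part in the H2B difference was not tested.

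**Figure D3:**
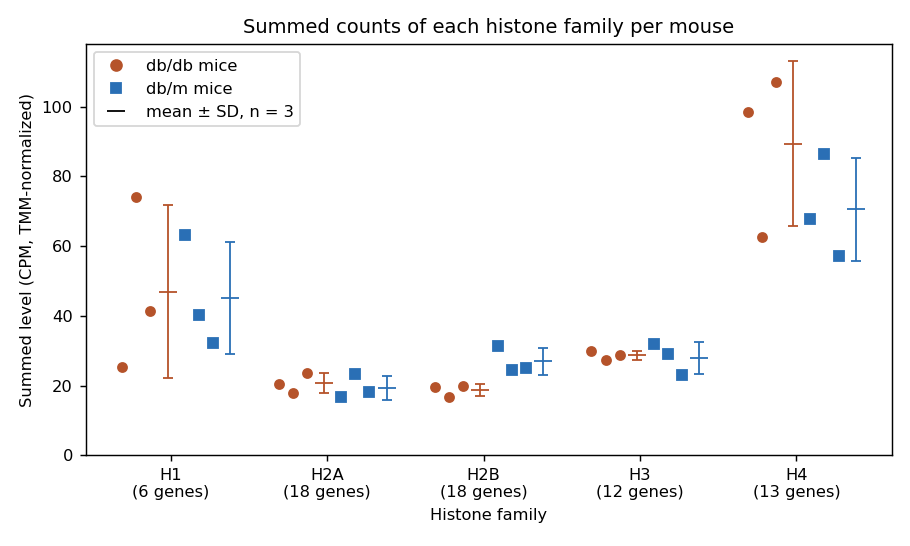
Summed TMM-normalized CPM of the 5 histone families in each mouse, with circles for db/db mice, squares for db/m mice and bars for the mean ± SD of 3 mice. The 3 H2B sums of db/db mice (16.7 to 19.9) lie below those of db/m mice (24.4 to 31.5), and the sums of the other 4 families overlap.

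H4 genes took the most reads in 5 of the 6 mice although their mRNAs are short. Their share of histone counts was 50.8%, 31.5% and 48.5% in db/db islets against 32.2%, 42.5% and 36.8% in db/m islets. H1 genes took 13.1% to 37.3%, H3 genes 13.0% to 15.4%, H2B genes 8.42% to 16.1% and H2A genes 7.91% to 11.7%. Per kb of coding sequence, the summed level was 289 ± 76.7 CPM for H4 in db/db islets against 228 ± 47.7 in db/m islets (SD, n = 3 each). The corresponding sums of H2A, H2B and H3 lay between 42.9 and 82.6 CPM per kb in all mice, and those of H1 between 39.5 and 115 CPM per kb. The median percentage of shared coding stretches was 71.2% for H4, 77.1% for H2B, 85.4% for H3 and 88.6% for H2A, and its part in these levels was not tested. By cluster, the Hist2 genes summed to 61.3 ± 6.82 CPM in db/db islets against 45.1 ± 16.02 in db/m islets, a log2 difference of 0.49 with overlapping groups. The Hist1 genes summed to 133.2 ± 16.5 and 134.1 ± 31.2 CPM (SD, n = 3 each), a log2 difference of 0.0091.

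In the test of single genes, none of the 30 tested histone genes had an adjusted p under 0.05 in the quasi-likelihood test of edgeR with Benjamini-Hochberg adjustment over 12760 genes. In the same test 79 of all tested genes were called, or 0.619%. DESeq2 called 0 of the 63 histone genes with at least 1 count. Its own filter can leave genes with few counts without an adjusted p, so that not all 63 could be called. At an unadjusted p under 0.05, edgeR gave 2 histone genes lower in db/db mice, against 9.89% of all tested genes, and 0 higher, against 5.04%. Both lower genes, Hist1h4k and Hist2h3c2, passed the filter through the db/m mice, where they were higher. DESeq2 gave 1. The median log2 fold change of the 30 genes was 0.09, against -0.00093 over all tested genes, and the range ran from -2.20 to 0.83. Its sign depended on the filter, since with no filter the median of 63 histone genes was -0.29, against -0.09 over all genes, and with DESeq2 it was -0.32, against -0.07. With no filter the median moved from 0.17 to -0.18 for H1 genes and from 0.07 to -0.35 for H3 genes. With a correction of each library for GC content and length, the median of the 30 genes was -0.31. The libraries differed in this respect. Across genes, GC content was correlated with the deviation of each library from the mean log level of the gene over all mice. This correlation lay between -0.20 and 0.15. Histone genes are rich in GC (median 57.9% of the longest transcript, against 49.8% over tested genes). The part of GC content in the single values was not tested.

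The groups did not overlap for 4 tested histone genes that were lower in db/db mice, against 12.6% of all tested genes, and for 1 that was higher, against 8.53%. Among the lower ones, Hist1h2ac, Hist2h3c2 and Hist1h4k passed the filter through the db/m mice, so that the filter partly set this count. Over the 63 histone genes with at least 1 count, 8 lay lower without overlap (12.7%), against 9.61% of such genes in the table, and 1 higher, against 5.73%.

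**Figure D4:**
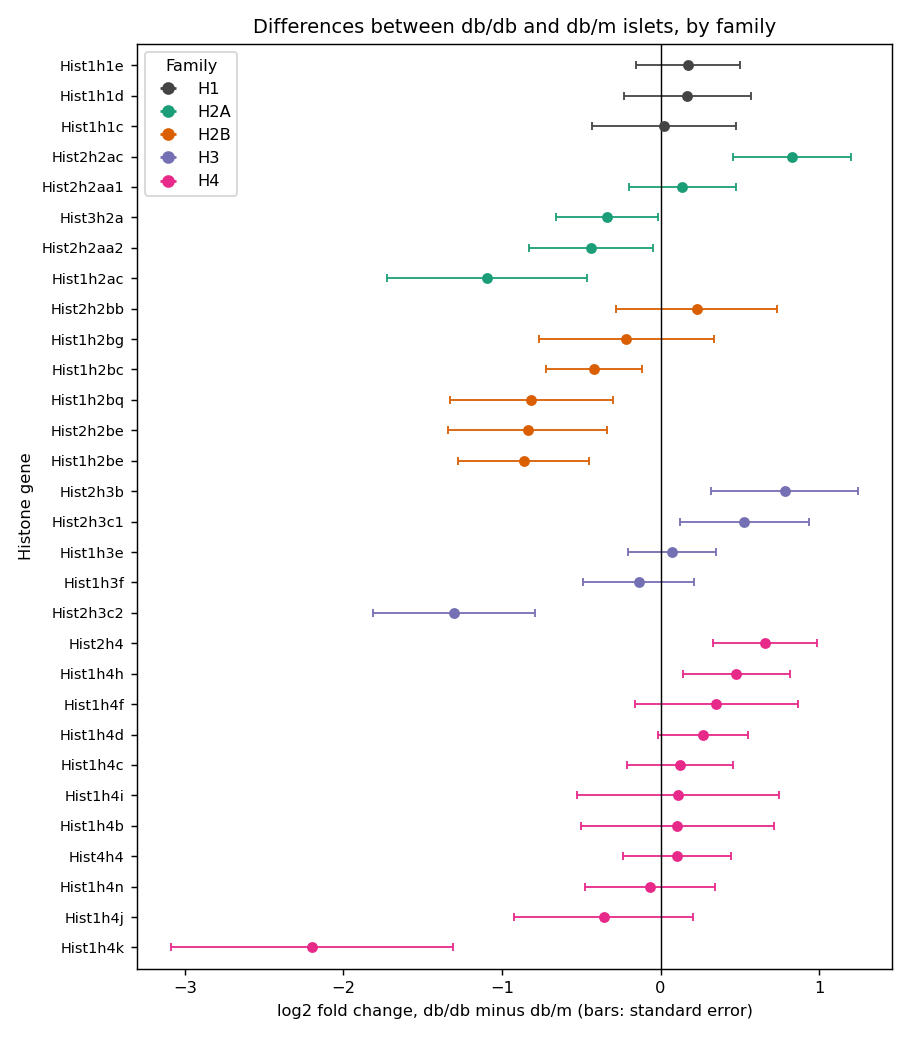
Log2 fold change (db/db minus db/m) of the 30 tested histone genes on the horizontal axis, with its standard error as bars, grouped and coloured by family. Of the 6 H2B genes 5 lie below 0 and of the 11 H4 genes 8 lie above 0, and no gene had an adjusted p under 0.05.

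The H1 genes with the most reads were Hist1h1c, Hist1h1e and Hist1h1d, linker histones of the Hist1 cluster. Hist1h1c (chromosome 13 from 23738808 to 23740367, plus strand, GRCm38) had 15.9, 50.05 and 21.99 CPM in db/db islets against 42.4, 26.3 and 17.9 CPM in db/m islets. In edgeR this was a log2 difference of 0.02 with a standard error of 0.45 and an adjusted p of 0.988. Hist1h1e had 6.18, 12.7 and 11.2 CPM and 11.3, 8.85 and 6.50 CPM, and Hist1h1d had 3.37, 10.8 and 7.20 CPM and 6.83, 4.83 and 7.36 CPM. In each of the 3 genes the db/db mouse with number 2 was highest and the one with number 1 lowest of all 6 mice. The same 2 mice were at the ends of the db/db group for H1f0, the replication-independent linker histone, with 77.5 CPM in number 1 and 151 CPM in number 2. Exons of Hist1h1e overlap those of Hist1h2be on the same strand, so reads of these 2 genes may be shared. The other H1 genes were rare, with Hist1h1a at 0 to 32 counts and Hist1h1b at 0 to 31 counts per mouse. Hist1h1t, the testis linker histone, had 0 counts in the 3 db/db mice and 10, 2 and 2 counts in db/m islets.

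Of the H2A genes, Hist2h2ac (chromosome 3 from 96220361 to 96220880, minus strand) had 9.15, 6.64 and 7.20 CPM in db/db islets against 2.97, 6.87 and 3.14 CPM in db/m islets. The edgeR fit gave a log2 difference of 0.83 with a standard error of 0.37 and an adjusted p of 0.340. No other tested histone gene had a higher log2 difference. The groups still overlapped, because the db/m mouse with number 2 lay within the db/db group. Hist2h2aa1 and Hist2h2aa2 have the same coding sequence, and their log2 fold changes were 0.14 and -0.44 (adjusted p = 0.877 and 0.625 from edgeR). Hist3h2a had 3.05, 2.57 and 3.83 CPM in db/db islets against 3.41, 4.54 and 4.01 CPM in db/m islets, a log2 fold change of -0.34. The H2A genes of the Hist1 cluster had few reads, with sums of 0.883 to 3.09 CPM in db/db islets against 1.86 to 4.66 CPM in db/m islets, although this cluster holds most H2A genes. Of these Hist1h2ac, named after its values were seen, was the tested H2A gene whose groups did not overlap. It had 0.161, 0.837 and 0.605 CPM in db/db islets against 1.43, 0.932 and 1.14 CPM in db/m islets, a log2 difference of -1.10 ± 0.63 (SE, edgeR adjusted p = 0.460). Hist1h2ac passed the filter on low counts through the db/m mice, so that the filter partly set this difference.

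Hist2h2ac lies head to head with the H2B gene Hist2h2be, whose annotated start on the plus strand (chromosome 3 from 96221119 to 96223738) falls within the Hist2h2ac promoter. Hist2h2be was named after its values were seen. It had 2.09, 1.08 and 1.21 CPM in db/db islets against 3.05, 3.38 and 1.35 CPM in db/m islets, a log2 difference of -0.84 ± 0.50 (SE, edgeR adjusted p = 0.469). The neighbours thus had fold changes of opposite sign, and neither passed the test. Hist2h2be is also one of the 2 genes without a matched stem-loop, and its annotated transcript ends near a poly(A) hexamer. The promoter between them is shown because the annotated starts of both genes lie in it. It was taken from RefSeq (GRCm38.p6, chr3:96220831-96221130, minus strand, read towards Hist2h2ac), with the octamer, CCAAT and TATAAA letters on either strand in capitals.
Hist2h2ac promoter: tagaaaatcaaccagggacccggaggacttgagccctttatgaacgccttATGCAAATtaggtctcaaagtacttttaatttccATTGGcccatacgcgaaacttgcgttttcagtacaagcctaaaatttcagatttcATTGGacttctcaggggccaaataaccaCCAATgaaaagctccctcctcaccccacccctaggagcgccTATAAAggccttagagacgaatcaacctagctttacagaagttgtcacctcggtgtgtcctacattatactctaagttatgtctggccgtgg
RefSeq held such a promoter of 300 bases around the start for 62 of the 67 genes. On either strand, CCAAT was present in 85.5% of them against 37.9% of 27025 promoters, TATAAA in 56.5% against 14.2%, and the octamer ATTTGCAT, the known site of POU2F1 in H2B promoters, in 20.97% against 1.75%. Each motif was searched on its own. The octamer was found in 7 of 18 H2A and 6 of 16 H2B promoters, which often face each other, and in 0 of the H1, H3 and H4 promoters. CCAAT was found in all H1, H2A, H2B and H3 promoters but in only 3 of 12 H4 promoters. These are matches of letters and do not show that a factor was bound.

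Among H2B genes, 5 of the 6 tested had a negative log2 fold change and none passed the test. The median of the 6 was -0.62, against -0.00093 over all tested genes. Its size depended on the setting. The median of the tested H2B genes was -0.29 without the db/m mouse with number 1 and -0.41 with an acinar score as covariate. With the GC and length offsets it was -0.81. Hist1h2bc, with the most reads, had 9.31, 8.07 and 7.87 CPM in db/db islets against 12.1, 6.81 and 14.8 CPM in db/m islets. By edgeR this came to a log2 difference of -0.42 with a standard error of 0.31 and an adjusted p of 0.550, and the db/m mouse with number 2 was the lowest of all. Hist1h2be had 1.28, 1.73 and 1.75 CPM in db/db islets against 2.53, 4.02 and 2.17 CPM in db/m islets, so that the groups did not overlap. In edgeR this was a log2 difference of -0.86 with a standard error of 0.41 and an adjusted p of 0.371. Hist2h2bb, which shares sequence with the overlapping gene Gm42743, was the exception with 2.97, 1.91 and 2.76 CPM and 1.25, 3.84 and 1.46 CPM, a log2 fold change of 0.23. Without Hist1h2bc, the H2B sum was 10.4, 8.67 and 12.04 CPM in db/db islets against 19.4, 17.6 and 10.2 CPM in db/m islets, and the groups overlapped.

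Rare H2B genes outside the test were named after their values were seen. Hist1h2bh had 4, 3 and 4 counts in db/db islets against 26, 14 and 11 counts in db/m islets. Hist3h2ba had 0, 3 and 2 counts in db/db mice, which is at or under the floor, and 17, 10 and 9 counts in db/m islets. Its mean CPM in db/m islets was 2.72-fold the mean CPM of 3 counts in the db/db libraries. This is not a lower bound of the difference. The floor covers a count of 0, whereas the db/db mice with numbers 2 and 3 had 3 and 2 counts. Neither gene reached the counts needed for the test, and neither had an unadjusted p under 0.05 when every gene with at least 1 count was fitted in edgeR.

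The 3 H3 genes with the most reads overlapped between the groups. Hist1h3e had 16.1, 10.9 and 13.3 CPM in db/db islets against 14.8, 14.6 and 8.77 CPM in db/m islets, a log2 difference of 0.07 ± 0.28 (SE, edgeR adjusted p = 0.920). Hist1h3f had 3.61, 3.17 and 2.89 CPM and 4.33, 3.96 and 2.33 CPM, a log2 fold change of -0.14. Hist2h3c1 had 5.94, 9.75 and 7.80 CPM and 2.68, 5.36 and 8.34 CPM, a log2 fold change of 0.53. Its near copy Hist2h3c2 (chromosome 3 from 96238108 to 96239127, minus strand) had 7, 10 and 7 counts in db/db islets against 35, 30 and 19 counts in db/m islets. In CPM these were 0.562, 0.598 and 0.471 in db/db islets against 1.28, 1.75 and 1.03 in db/m islets, so that the groups did not overlap. The edgeR fit gave a log2 difference of -1.30 with a standard error of 0.51 and an adjusted p of 0.281, one of the 2 histone genes with an unadjusted p under 0.05. Hist2h3c2 passed the filter on low counts through the db/m mice, so that the filter partly set its difference. Every coding stretch of Hist2h3c1 and Hist2h3c2 occurs in another gene. The third Hist2 gene of the family, Hist2h3b, had a log2 fold change of 0.78 and was the only tested histone gene for which each db/db mouse lay above each db/m mouse. Summed over the Hist2 cluster, H3 genes had 8.75, 11.7 and 9.82 CPM in db/db islets against 4.84, 8.15 and 10.4 CPM in db/m islets, and the groups overlapped.

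The H4 genes all encode the same protein, and 8 of the 11 tested had a positive log2 fold change, with a median of 0.11. The sign of this median depended on the processing. It was -0.20 with the GC and length offsets and -0.61 with library size alone. With a mouse left out, the median of the tested H4 genes lay between -0.0081 and 0.39. Hist2h4 (chromosome 3 from 96261682 to 96263311, minus strand), the highest H4 gene per kb of RefSeq exon sequence, had 37.2, 25.8 and 31.7 CPM in db/db islets against 14.3, 30.8 and 14.9 CPM in db/m islets. By edgeR this came to a log2 difference of 0.66 with a standard error of 0.33 and an adjusted p of 0.391. As for its cluster neighbour Hist2h2ac, the db/m mice with numbers 1 and 3 were the 2 lowest, and number 2 lay within the db/db group. Hist1h4h had 23.4, 11.9 and 27.4 CPM and 13.5, 19.3 and 12.1 CPM, a log2 fold change of 0.48 (adjusted p = 0.534 from edgeR). Hist1h4d had 15.5, 10.7 and 22.4 CPM and 13.98, 13.1 and 13.2 CPM, a log2 fold change of 0.27 (adjusted p = 0.691 from edgeR). The 3 genes overlapped between the groups. Hist4h4, which shares no coding stretch with another gene, had a log2 fold change of 0.10.

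Hist1h4k (chromosome 13 from 21750194 to 21750505, minus strand) was the H4 gene that differed most. It had 0, 8 and 13 counts in db/db islets against 95, 32 and 19 counts in db/m islets, or 0, 0.478 and 0.874 CPM against 3.49, 1.86 and 1.03 CPM. The groups did not overlap, with a log2 difference of -2.20 ± 0.89 (SE, edgeR adjusted p = 0.288). Hist1h4k passed the filter on low counts through the db/m mice, so that the filter partly set this difference. Without the db/m mouse with number 1 its log2 fold change was -1.61, and neither Hist1h4k nor Hist2h3c2 then had an unadjusted p under 0.05. Its stem-loop is the same as that of Hist1h4h and Hist1h4d, and 72.3% of its coding stretches occur in another gene, the same percentage as for Hist1h4h.

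The 37 histone genes under the filter were summed. The filter asks for counts in several libraries, so that genes high in 1 mouse alone fall under it, and it partly sets what this sum shows. Their counts summed to 62, 94 and 155 in db/db islets and to 599, 123 and 127 in db/m islets. In CPM the sums were 4.98, 5.62 and 10.4 in db/db islets against 21.99, 7.16 and 6.88 in db/m islets. The db/m mouse with number 1 was thus above all others, while the other 5 mice overlapped. In that mouse these genes took 10.4% of histone counts, against 2.56% to 4.72% in the others. An example is Hist1h3i, with 5, 4 and 4 counts in db/db islets against 64, 9 and 7 in db/m islets.

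Genes of dividing cells were examined beside them. A list of 24 genes of G2 and mitosis summed to 2.97, 7.23 and 6.52 CPM in db/db islets and to 15.9, 4.19 and 4.602 CPM in db/m islets. The same db/m mouse was again the highest. Mki67, a marker of proliferating cells, had 5, 31 and 25 counts in db/db islets against 120, 9 and 22 counts in db/m islets, a log2 difference of -0.64 ± 0.80 (SE, edgeR adjusted p = 0.744). The fold change of Mki67 became 0.65 without that db/m mouse. A list of 44 S phase genes summed to 87.7, 94.3 and 83.5 CPM in db/db islets and to 115, 76.9 and 91.8 CPM in db/m islets, and that mouse was the highest here as well. Leukocyte markers were also highest in it, at 114 CPM against 7.31 to 95.6 CPM in the other mice. So were markers of other endocrine cells (1788 CPM against 275 to 815 CPM), of endothelium (47.5 CPM against 12.9 to 27.5 CPM) and of red cells (2.02 CPM against 0.299 to 0.866 CPM). Duct markers were lowest in it (252 CPM against 274 to 332 CPM). Stromal markers (52.3 CPM) lay within the range of the db/db mice (37.8 to 69.3 CPM). The part of dividing cells or of any of these cell types in the histone counts of this mouse was not tested.

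**Figure D5:**
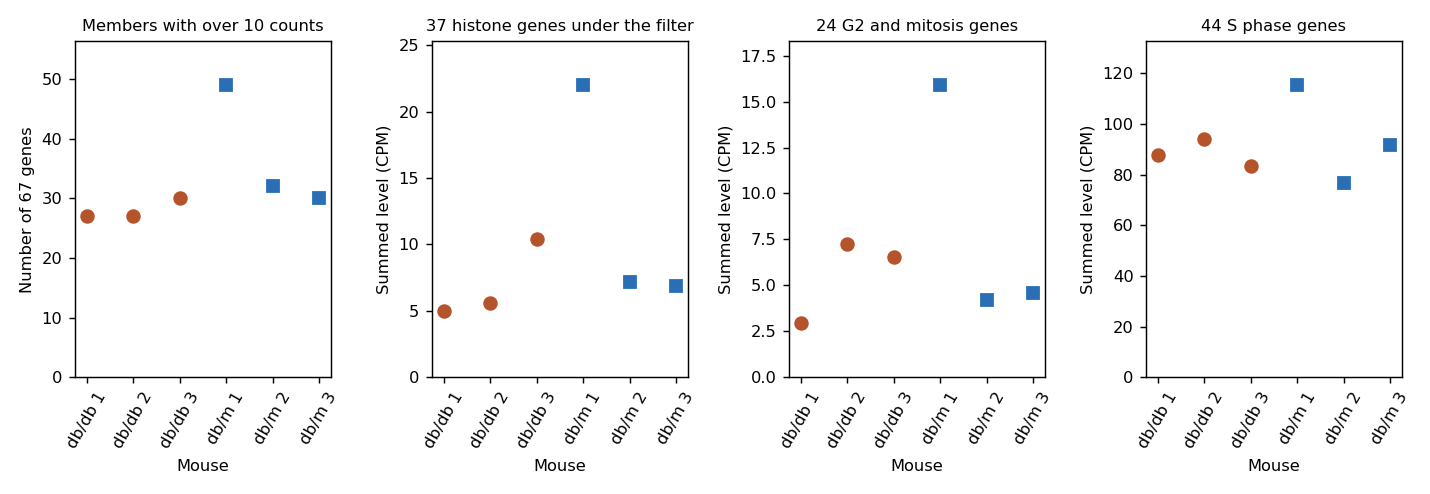
Number of the 67 histone genes with more than 10 counts, and summed TMM-normalized CPM of the 37 histone genes under the filter, of 24 G2 and mitosis genes and of 44 S phase genes, in each of the 6 mice. The db/m mouse with number 1 is the highest in every panel (49 genes, 21.99 CPM, 15.9 CPM and 115 CPM). The threshold in raw counts corresponds to a lower CPM in this mouse than in the others.

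Of the S phase list, 30 genes were tested, and 0 had an adjusted p under 0.05 in edgeR. Gins4, a subunit of the replicative helicase complex, had an unadjusted p under 0.05 and a log2 fold change of 0.93 (adjusted p = 0.322 from edgeR). Its levels were 4.17, 2.99 and 6.05 CPM in db/db islets against 1.65, 2.15 and 3.14 CPM in db/m islets, which overlapped. Pcna, the sliding clamp of DNA polymerase, had 17.0, 6.94 and 9.89 CPM in db/db islets against 11.3, 17.4 and 11.3 CPM in db/m islets, a log2 fold change of -0.24 (adjusted p = 0.780 from edgeR). The median of the list was -0.14, and only 2 of the 24 G2 and mitosis genes passed the filter.

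The machinery that makes and destroys histone mRNAs was called in 0 of 31 tested genes, with a median log2 fold change of -0.09. Slbp, the stem-loop binding protein, had 2.97, 1.43 and 1.82 CPM in db/db islets against 3.41, 1.40 and 2.27 CPM in db/m islets, a log2 fold change of -0.20 (adjusted p = 0.871 from edgeR). Lsm11, a component of the U7 particle that cuts histone pre-mRNA, had 4.25, 2.27 and 3.30 CPM in db/db islets against 1.36, 2.04 and 1.73 CPM in db/m islets. Each db/db mouse lay above each db/m mouse, with a log2 difference of 0.94 ± 0.40 (SE, edgeR adjusted p = 0.318). Zcchc6, an enzyme that adds uridines to RNA ends, had 19.2, 22.4 and 21.5 CPM in db/db islets against 30.6, 31.2 and 26.6 CPM in db/m islets, a log2 fold change of -0.49 (adjusted p = 0.316 from edgeR). These 2 were the genes of the list with an unadjusted p under 0.05.

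Replication-independent histone genes mostly give polyadenylated mRNAs and can supply histones outside S phase. H1f0 had 77.5, 151 and 84.5 CPM in db/db islets against 72.6, 86.1 and 91.7 CPM in db/m islets, and H3f3b, an H3.3 gene, had 68.2, 98.8 and 67.7 CPM and 107, 83.9 and 97.1 CPM. Their log2 fold changes were 0.32 and -0.29 (adjusted p = 0.644 and 0.615 from edgeR). H2afz, the H2A.Z gene, had a log2 fold change of 0.44 (adjusted p = 0.483 from edgeR). Of the 15 genes of the list 11 were tested and 0 were called, with a median of 0.0081. H2afy2, which encodes the large variant macroH2A2, had 0.482, 0.897 and 0.471 CPM in db/db islets against 2.72, 2.45 and 1.90 CPM in db/m islets, and the groups did not overlap. In edgeR this was a log2 difference of -1.91 with a standard error of 0.49 and an adjusted p of 0.116. DESeq2 gave it an adjusted p of 0.0406, and over all alternatives the adjusted p lay between 0.0406 and 0.398.

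Of the 25 listed genes of histone chaperones and histone deposition, 23 were tested and 0 were called, with a median of -0.13. The 3 with an unadjusted p under 0.05 lay lower in db/db mice, against 9.89% of all tested genes. Without overlap 6 of the 23 lay lower, against 12.6%, and 1 lay higher, against 8.53%. Besides the 3 genes described next these were, named after their values were seen, Nasp, Ubn1 and Supt16, with log2 fold changes of -0.53, -0.27 and -0.34, and Hat1, with 0.60 (adjusted p = 0.479, 0.578, 0.461 and 0.579 from edgeR). Anp32e, which removes H2A.Z from chromatin, had 9.31, 7.95 and 8.14 CPM in db/db islets against 18.1, 14.1 and 14.4 CPM in db/m islets. The edgeR fit gave a log2 difference of -0.88 with a standard error of 0.23 and an adjusted p of 0.117. Hira and Atrx, which take part in placing H3.3, had log2 fold changes of -0.53 and -0.49 (adjusted p = 0.321 and 0.325 from edgeR). The levels of Hira lay between 9.55 and 13.0 CPM in db/db and between 13.97 and 17.3 CPM in db/m islets.

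A part of the histone genes is annotated with a poly(A) hexamer. In 15 genes the letters AATAAA stood within the last 40 bases of an annotated transcript, among them Hist1h1c, Hist2h4, Hist2h3c1, Hist2h2be, Hist3h2a and Hist4h4. These 15 genes summed to 76.6, 97.5 and 78.9 CPM in db/db islets and to 83.9, 84.6 and 57.3 CPM in db/m islets. The other 52 genes summed to 118, 101 and 142 CPM and to 127, 119 and 98.4 CPM. Both sets overlapped between the groups, and how much of the RNA carried a poly(A) tail was not measured.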

How the data were processed

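Total RNA of islets was depleted of ribosomal RNA, sequenced and mapped to mm10 by the authors. The submitters' processing notes name HISAT2 2.0.4, and the paper names TopHat. The authors deposited raw read counts per gene symbol for 6 mice, without normalization; the counting program, its annotation and its use of strand are not given in the sources used here. Exons of 7 histone genes overlap another gene on the same strand and of 21 on the opposite strand.

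The groups were compared by edgeR 4.0.16 under R 4.3.3 (filterByExpr, TMM, quasi-likelihood F-test, Benjamini-Hochberg adjustment over 12760 genes, threshold 0.05). Standard errors were derived from the fold change and F. Mice of one group differed beyond sampling noise (26.5 to 147 as chi-square over its degrees of freedom), and the labels do not name pairs. P-values measure the spread between these 3 mice per group, whose separate animals the labels number. Floors cover counting error alone.

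The members and lists were chosen with earlier results of these data known. Named were the 3 highest genes per family, members with an unadjusted p under 0.05, up to 3 such genes per list, and Slbp, H2afz, H3f3b, H1f0, Pcna and Mki67. Positions, stem-loops and shared stretches came from GRCm38 (GENCODE, RefSeq). All 67 symbols matched. Alternatives were DESeq2 1.42.0, other scalings and filters, the replicate number as a block, an acinar score as covariate, each mouse left out, and GC and length offsets, the last chosen after seeing the data (GC content known for 92.2% of tested genes). The pipeline was tested on simulated data.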

Additional observations from a re-analysis of the deposited data

How the results depend on the processing

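In all 16 alternatives 0 histone genes were called. The number with an unadjusted p under 0.05 in either direction was 2 in edgeR (2 lower in db/db mice). It was 5 of 30 with library size alone (5 lower), 5 of 63 with no filter (3 lower) and 2 of 30 with the acinar covariate (0 lower). It was 1 of 63 with DESeq2 (1 lower), 0 of 30 with the replicate block and 0 to 6 when a mouse was left out. Without the db/m mouse with number 1 it was 0 of 30, and without the db/m mouse with number 3 it was 6 of 37 (5 lower). The share of all genes at this threshold is given only for the edgeR test described above. The counts under the alternatives are therefore not read as a result about the histone genes. Over all genes, the 79 calls became 21 with library size alone, 52 with upper-quartile factors, 16 with the replicate block, 680 with DESeq2, 888 with no filter and 10 to 333 when a mouse was left out. DESeq2 called 1 gene of the replication-independent list and 1 of the list without poly(A) tails, and 0 of the other 4 lists. Same-numbered mice did not deviate together (correlations -0.51, -0.15 and -0.32), so that the block shares only a number. The summed histone difference over the 67 genes (0.12) was -0.45 with library size alone. With the GC and length offsets it was -0.077, but over the 30 tested genes alone, so it also differs in the set of genes. Without offsets these 30 genes summed to 189, 193 and 210 CPM in db/db islets and to 189, 196 and 149 CPM in db/m islets.

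Of 495 fold changes of named genes recomputed, 455 kept direction and side, and 38 of 14 genes changed sign, each with an adjusted p of at least 0.406 in edgeR or DESeq2. With library size alone these were Hist1h1c (-0.59), Hist1h1e (-0.42), Hist1h1d (-0.33), Hist2h2aa1 (-0.32), Hist2h2bb (-0.30), Hist1h3e (-0.61), Hist1h4h (-0.13), Hist1h4d (-0.34), H2afz (-0.17) and H1f0 (-0.16), a scaling that moved the median of all tested genes to -0.59 and with it genes near 0 below 0. With the GC and length offsets they were Hist1h1c (-0.15), Hist2h2aa1 (-0.044), Hist2h2bb (-0.0081), Hist1h3e (-0.37) and Hist1h4d (-0.061). With the acinar covariate they were Hist2h2aa1 (-0.24), Hist2h2bb (-0.32), Hist1h3f (0.14), Slbp (0.0011) and Mki67 (1.19), and with the replicate block Hist1h1c (-0.040). With a mouse left out, the ranges were -0.60 to 0.43 for Hist1h1c, -0.026 to 0.43 for Hist1h1e, -0.25 to 0.51 for Hist1h1d, -0.10 to 0.31 for Hist2h2aa1, -0.046 to 0.94 for Hist2h2bb, -0.12 to 0.21 for Hist1h3e, -0.35 to 0.054 for Hist1h3f, -0.030 to 0.50 for Hist1h4d, -0.54 to 0.19 for Slbp, -0.038 to 0.51 for H1f0, -0.66 to 0.024 for Pcna and -1.06 to 0.65 for Mki67. The causes under the other settings were not tested. The floor of 3 counts limits what can be said of the 37 genes under the filter.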

Other observations

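Other abundant RNAs made without a poly(A) tail were read in the same libraries. Of 11 such genes 8 were tested and 0 were called in edgeR, with a median log2 fold change of -0.02. Malat1, a long nuclear RNA whose end is cut without polyadenylation, had 1516, 1950 and 2222 CPM in db/db islets against 5946, 4868 and 4407 CPM in db/m mice. The groups did not overlap, and edgeR gave a log2 difference of -1.42 with a standard error of 0.37 and an adjusted p of 0.121. Across the alternatives the adjusted p of Malat1 lay between 1.1e-05, from DESeq2, and 0.563. The RNase components Rmrp and Rpph1 and the transcription regulator Rn7sk, named after their values were seen, had log2 fold changes of -0.14, -0.05 and 0.16 with overlapping groups. The signal recognition particle RNAs Rn7s1 and Rn7s2, also named after their values were seen, lay higher in each db/db mouse than in each db/m mouse. Their log2 fold changes were 0.58 and 0.50 (adjusted p = 0.433 and 0.490 from edgeR). The 3 histone rows marked as pseudogenes had 0 to 2 counts per mouse and were left out.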
